A study of Rattus norvegicus with 16 samples.

Results

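Principal cells, the water- and sodium-reabsorbing cells of the renal collecting duct, were followed in the outer medulla of the rat kidney through 10 genes: the vasopressin receptor gene Avpr2, the water channel genes Aqp2, Aqp3 and Aqp4, the sodium channel subunit genes Scnn1a, Scnn1b and Scnn1g, the mineralocorticoid receptor gene Nr3c2, the steroid enzyme gene Hsd11b2 and the transcription factor gene Gata3. They were taken by gene name, with earlier results of these data known, and they are 10 of 15284 genes with a named probe, with 22 of 61657 probes on the array. The tissue came from male Sprague-Dawley (Crl:CD) rats, 5 weeks old when dosing began. The treated animals received 2-amino-4-nitrophenol (ANP), a nitroaromatic hair dye ingredient, by daily gavage at 750 mg/kg/day in corn oil, and the vehicle animals received corn oil alone. Kidneys were sampled on day 1, 7, 14 or 28 of dosing. For day 1 and day 7 the treated and the vehicle group are each represented by 1 array, hybridised with RNA mixed from 3 animals. For day 14 and day 28 each of them is represented by 3 animals on separate arrays. The model has 1 dose and 1 sex, and each array holds bulk tissue of a dissected zone, so fewer principal cells and less RNA per cell cannot be told apart in any value below.

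Vasopressin acts on its receptor on the blood side of the principal cell, raises cyclic AMP and sends aquaporin-2 vesicles to the urine side, and the water then leaves through aquaporin-3 and aquaporin-4. Sodium enters through the epithelial sodium channel, built of alpha, beta and gamma subunits, and is pumped out on the blood side. Aldosterone drives that channel through the mineralocorticoid receptor, and the enzyme made from Hsd11b2 inactivates the glucocorticoid corticosterone, which would otherwise occupy the same receptor.

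Expression is given as the log2 of the background-subtracted spot signal minus the log2 of the 75th percentile of its array, so 0 is the signal at that percentile and a difference of 1 is a doubling in signal. Levels of different genes come from different probes and are not set against each other. The 12 arrays of days 14 and 28 were fitted together in limma, and p-values were adjusted over all 11849 genes tested, with a threshold of 0.05. All 10 genes were well above background on all 16 arrays and all 10 entered the test. On the 16 arrays 64.75% to 69.6% of probes were well above background, and the number of arrays limits the precision. Markers of the thick ascending limb (12 of 12 with a probe) and of the straight proximal tubule (11 of 11), both tubules of the outer medulla, were well above background on all 16 arrays. So were those of 2 structures of the cortex, the convoluted proximal tubule (13 of 13) and the glomerulus (12 of 12). Of 8 markers of the distal convoluted and connecting tubule with a probe, 5 were well above background on all 16 arrays. Of that list 1 gene, Pvalb, was well above background on no array.

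After 28 days of ANP the RNA of Hsd11b2, Gata3 and Scnn1g was lower than in the vehicle animals, by 2.09-fold, 1.70-fold and 1.64-fold. These were 3 of 10 genes lower and 0 higher, where over all genes tested 2.69% were lower and 4.49% higher. Scnn1b lay in the same direction without passing the test, and the 3 treated arrays lay below the 3 vehicle arrays for it as well. In all, 4 of 10 genes had treated arrays wholly below vehicle arrays, against 14.2% of all genes tested. The median log2 ratio of the 10 genes was -0.31 at day 28, beside 0.02 over all genes tested. The vasopressin receptor, the water channels, the alpha subunit of the sodium channel and the mineralocorticoid receptor did not pass the test.

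**Figure D1:**
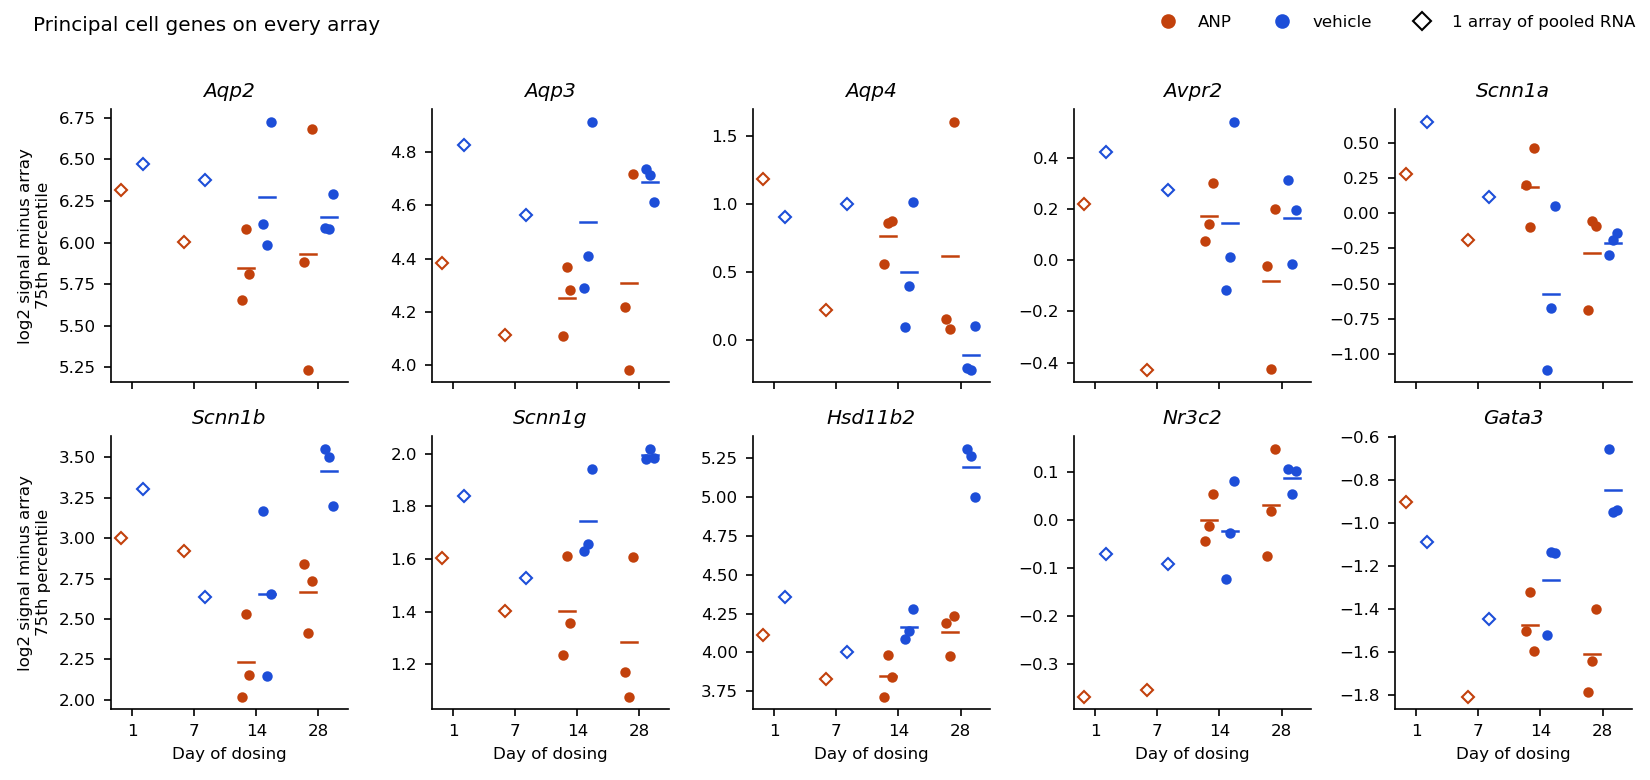
Level of each of the 10 genes on every array, by day of dosing. The y axis is log2 signal minus the array's 75th percentile, with its own range in each panel, and horizontal lines are means of 3 arrays. ANP arrays stand left of vehicle arrays, and open diamonds are arrays of RNA mixed from 3 animals. For Hsd11b2 the 3 vehicle arrays of day 28 lie at 5.00 to 5.31, and no other array exceeds 4.36.

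Hsd11b2, the enzyme gene that guards the mineralocorticoid receptor, measured 4.19, 3.97 and 4.23 in ANP animals at day 28, against 5.31, 5.27 and 5.00 in vehicle animals. The groups were far apart, and the gap between them was wider than the spread within either. On the linear scale of the scanner the same spots read 15552, 13726 and 19421 units in ANP animals, against 34184, 33479 and 25981 units in vehicle animals. The log2 ratio was -1.06 ± 0.11 (SE), with an adjusted p of 0.00302 in limma. It passed under each of 17 alternatives, which include leaving out 1 array at a time, and those fits without 1 array gave ratios from -1.16 to -0.99. Some of the 17 could hardly change the result. The gene has 1 probe, so averaging probes left its values as they were, and the authors' deposited values are nearly the same. Slide as a fixed block could not be fitted at day 28 and is not among them.

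At day 14 Hsd11b2 measured 3.71, 3.99 and 3.84 in ANP animals, against 4.08, 4.13 and 4.28 in vehicle animals. The treated arrays again lay below the vehicle arrays, but narrowly, and the log2 ratio of -0.32 ± 0.11 had an adjusted p of 0.26 in limma. The 3 vehicle arrays of day 14 and the first treated array shared a slide, and within that slide the ratio was -0.45 ± 0.14, with an adjusted p of 0.82 in limma. The pools read 4.11 for ANP against 4.36 for vehicle at day 1, and the ANP pool of day 7 stood at 3.83, which was lower by 0.17 than its vehicle pool.

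Much of the day 28 difference in Hsd11b2 lay in the vehicle animals. Their level at day 28 was above that on all 13 other arrays, pools included, and was 1.03 ± 0.11 higher than in the vehicle animals of day 14 on the log2 scale (limma, adjusted p = 0.00227). The treated animals of day 28 were 0.28 ± 0.11 above those of day 14, with an adjusted p of 0.149 in limma. Over the 10 genes, Hsd11b2 alone passed the test as higher between the vehicle groups, beside 6.99% of all genes tested. As lower 0 passed, beside 4.16%. The ratio was above 0 for 8 of the 10, beside 50.9% of all genes tested. The comparison of vehicle groups and that of day 28 share the day 28 vehicle arrays. At day 28 the ANP and the vehicle arrays lay on separate slides, so slide and treatment cannot be told apart there. The vehicle arrays of day 14 all lay on a different slide from those of day 28, so slide and day changed together between the vehicle groups.

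The difference between the ANP effects of day 28 and day 14 was -0.75 ± 0.16 for Hsd11b2, with an unadjusted p of 0.00091. Adjusted over all genes it was 0.377 in limma. In that comparison 0 of 11849 genes passed, 0%, although 1098 of them, 9.27%, had an unadjusted p under 0.05. Among the 10 genes Hsd11b2 and Gata3 were the 2 with an unadjusted p under 0.05. No gene here is therefore shown to respond differently at the 2 times.

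**Figure D2:**
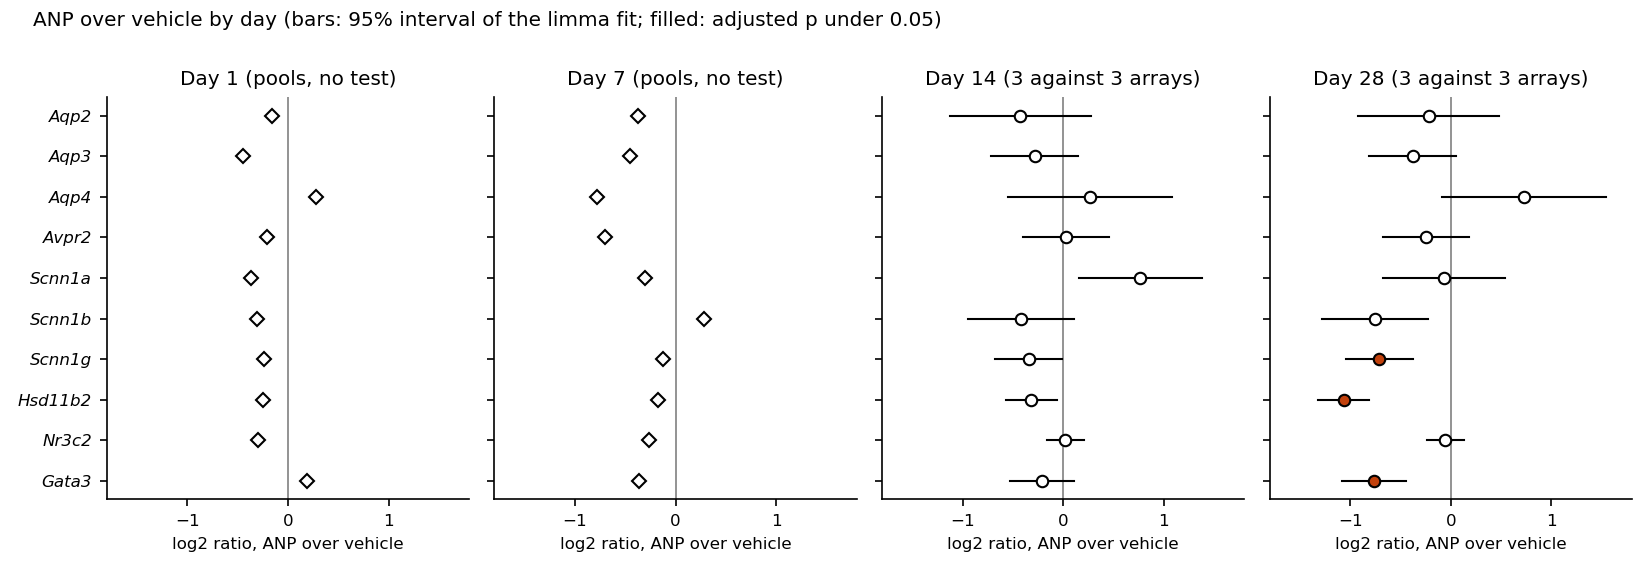
Log2 ratio of ANP over vehicle for the 10 genes at each day. Bars are 95% intervals of the limma fit, filled circles have an adjusted p under 0.05, and diamonds are ratios of pools, which carry no error. At day 28 the 3 filled circles are Scnn1g, Hsd11b2 and Gata3, and at day 14 there is none.

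The mineralocorticoid receptor gene Nr3c2, whose ligand supply Hsd11b2 controls, measured -0.08, 0.02 and 0.15 in ANP animals at day 28, against 0.11, 0.05 and 0.10 in vehicle animals. The groups overlapped, with a log2 ratio of -0.06 ± 0.08 and a 95% interval of -0.24 to 0.13 (limma, adjusted p = 0.707). At day 14 it measured -0.04, -0.01 and 0.06 in ANP animals, against -0.12, -0.03 and 0.08 in vehicle animals. All 12 arrays of single animals thus lay within a narrow band for this gene. The lowest values were those of the ANP pools, -0.37 at day 1 and -0.35 at day 7, against -0.07 and -0.09 in the vehicle pools.

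Of the 3 sodium channel subunits, Scnn1g alone passed the test at day 28, and differences between subunits were not tested. Scnn1g, the gamma subunit, measured 1.17, 1.08 and 1.61 in ANP animals at day 28, against 1.98, 2.02 and 1.98 in vehicle animals. The vehicle arrays were nearly level, and the third treated animal stood closer to them than the other two. The log2 ratio was -0.71 ± 0.15 with an adjusted p of 0.0245 in limma. The call was lost in most fits that left 2 arrays in a group. Without each vehicle array in turn the adjusted p was 0.0745, 0.0840 and 0.0578 in limma. The ratios there were -0.72, -0.70 and -0.72, with an SE of 0.18 each. Without the first or second treated array the ratio was -0.65 or -0.61 and the adjusted p 0.0650 or 0.0783. Without the third treated array it was 0.0179, and with the day 28 groups fitted alone it was 0.0574. The ratio itself lay below 0 in all of these fits.

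At day 14 Scnn1g measured 1.24, 1.61 and 1.36 in ANP animals, against 1.63, 1.66 and 1.94 in vehicle animals. The groups did not overlap, though the second treated animal came within 0.02 of the lowest vehicle animal, and the log2 ratio of -0.34 ± 0.15 had an adjusted p of 0.362 in limma. Scnn1g and Hsd11b2 were the 2 of 10 genes with treated arrays wholly below vehicle arrays at day 14, beside 7.92% of all genes tested. Within the slide shared at day 14 the ratio of Scnn1g was -0.51 ± 0.19, with an adjusted p of 0.928 in limma. The pools read 1.60 for ANP against 1.84 for vehicle at day 1, and 1.40 for ANP against 1.53 for vehicle at day 7, so the treated value was the lower at each of the 4 times. As for Hsd11b2, the 3 vehicle arrays of day 28 were above all 13 other arrays.

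Scnn1b, the beta subunit, measured 2.84, 2.42 and 2.74 in ANP animals at day 28, against 3.55, 3.50 and 3.20 in vehicle animals. The groups did not overlap, and the log2 ratio of -0.75 ± 0.24 had an adjusted p of 0.083 in limma. It passed with normexp background correction and quantile normalization used together (adjusted p = 0.0488 in limma) and with slide as a random block (0.0339). In the random block the fitted correlation within slides was -0.089. With each day 28 group wholly on a single slide, apart from the other group, a negative correlation narrows the error of the contrast. A second probe of the gene, tested apart, had a ratio of -0.71 ± 0.19 and an adjusted p of 0.053 in limma. At day 14 the values were 2.02, 2.53 and 2.16 in ANP animals, against 3.17, 2.15 and 2.65 in vehicle animals. There the vehicle animals spread more widely than the treated ones and the groups overlapped (-0.42 ± 0.24; adjusted p = 0.495 in limma). The pools pointed opposite ways, with 3.00 for ANP against 3.31 for vehicle at day 1 and 2.92 for ANP against 2.64 for vehicle at day 7.

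Scnn1a, the alpha subunit, measured -0.69, -0.06 and -0.09 in ANP animals at day 28, against -0.30, -0.19 and -0.14 in vehicle animals. The groups overlapped, and the log2 ratio was -0.07 ± 0.27 with a 95% interval of -0.68 to 0.54 (limma, adjusted p = 0.901). At day 14 the values were 0.20, -0.10 and 0.46 in ANP animals, against -1.11, -0.67 and 0.05 in vehicle animals. Here most treated arrays were the higher ones, with a ratio of 0.77 ± 0.27 and an unadjusted p of 0.0187, which became 0.258 after adjustment in limma. Together with Scnn1g and Hsd11b2, it was 1 of 3 genes with an unadjusted p under 0.05 at day 14, beside 13.4% of all genes tested. A second Scnn1a probe had ratios of 0.35 at day 14 and 0.15 at day 28. The pools read 0.28 for ANP against 0.65 for vehicle at day 1, and -0.19 for ANP against 0.12 for vehicle at day 7.

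Gata3, a transcription factor present in the collecting duct from its development onward, measured -1.79, -1.64 and -1.40 in ANP animals at day 28, against -0.66, -0.95 and -0.94 in vehicle animals. The groups were clearly apart, with a log2 ratio of -0.76 ± 0.14 and an adjusted p of 0.0158 in limma. The call was lost without the first vehicle array (adjusted p = 0.0634 in limma) and without the second treated array (0.0542). A second, dimmer probe had a ratio of -0.82 ± 0.27 and an adjusted p of 0.0946 when probes were tested apart in limma. At day 14 the values were -1.50, -1.32 and -1.59 in ANP animals, against -1.52, -1.14 and -1.14 in vehicle animals. These groups overlapped (-0.21 ± 0.14; adjusted p = 0.592 in limma). In the pools Gata3 read -0.90 for ANP against -1.09 for vehicle at day 1 and -1.81 for ANP against -1.45 for vehicle at day 7.

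Promoter sequences were looked up for the genes with the lowest day 28 ratios and for Aqp2, the best known vasopressin target among them, to show what stands upstream of each. RefSeq's table for the GRCr8 assembly held promoters of 7 of the 10 genes; Hsd11b2, Scnn1a and Nr3c2 were not among them. The windows below are the 250 bases before the start of each gene, 5′ to 3′ on the gene's strand, at chr1:185735975-185736224 (plus strand) for Scnn1g, chr1:185861126-185861375 (plus) for Scnn1b, chr17:73553298-73553547 (plus) for Gata3 and chr7:132590036-132590285 (plus) for Aqp2. Capitals mark matches, on either strand, to AGAACA (a core of corticosteroid receptor sites), TGACG (a core of cyclic AMP response elements), AGATAA, which proteins of the family of Gata3 bind, or TGATAA, another form of that site.
Scnn1g: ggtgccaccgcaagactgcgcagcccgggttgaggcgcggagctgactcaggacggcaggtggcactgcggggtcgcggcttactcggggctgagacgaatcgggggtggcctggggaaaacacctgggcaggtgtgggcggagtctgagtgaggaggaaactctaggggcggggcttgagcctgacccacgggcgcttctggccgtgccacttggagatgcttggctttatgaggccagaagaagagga
Scnn1b: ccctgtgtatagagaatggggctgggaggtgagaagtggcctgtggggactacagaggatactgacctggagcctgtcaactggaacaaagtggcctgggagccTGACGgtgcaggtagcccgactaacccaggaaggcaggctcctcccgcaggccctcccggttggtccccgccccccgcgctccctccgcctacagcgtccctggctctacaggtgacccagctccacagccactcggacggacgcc
Gata3: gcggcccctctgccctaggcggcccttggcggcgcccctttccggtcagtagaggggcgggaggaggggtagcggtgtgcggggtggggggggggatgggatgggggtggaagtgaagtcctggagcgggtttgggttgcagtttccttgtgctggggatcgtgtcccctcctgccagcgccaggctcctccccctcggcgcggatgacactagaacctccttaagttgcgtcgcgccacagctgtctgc
Aqp2: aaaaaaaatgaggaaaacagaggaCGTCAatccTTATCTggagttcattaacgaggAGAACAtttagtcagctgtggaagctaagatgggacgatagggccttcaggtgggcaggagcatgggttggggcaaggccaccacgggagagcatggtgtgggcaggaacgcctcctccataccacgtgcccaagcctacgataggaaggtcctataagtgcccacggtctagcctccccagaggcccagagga
Scnn1b and Scnn1g lie on the same strand of chromosome 1, where their windows are separate. Scnn1b held TGACG from 146 to 142 bases before its start. Aqp2 held CGTCA, which is TGACG on the other strand, from 226 to 222 bases before its start, then TTATCT, which is AGATAA on the other strand, from 217 to 212, and AGAACA from 194 to 189. Neither Scnn1g nor Gata3 held any of the 4 motifs in its window. Of the other members with a promoter, Avpr2 held TGTTCT, the other strand of AGAACA, and Aqp3 and Aqp4 held none. Such matches are common: of 27457 promoter windows 17.1% held AGAACA, 19.0% held TGACG and 7.87% held TGATAA. The share with AGATAA lay between the lowest and the highest of these. A match is only a description of the letters.

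On the water side, the vasopressin receptor gene Avpr2 measured -0.02, -0.42 and 0.20 in ANP animals at day 28, against 0.31, -0.02 and 0.20 in vehicle animals. The groups overlapped, and the log2 ratio was -0.25 ± 0.19 with a 95% interval of -0.68 to 0.18 (limma, adjusted p = 0.45). At day 14 the values were 0.07, 0.14 and 0.30 in ANP animals, against -0.12, 0.01 and 0.54 in vehicle animals, which again overlapped (0.03 ± 0.19). The widest gap was between the pools of day 7, at -0.43 for ANP against 0.27 for vehicle, and the pools of day 1 read 0.22 for ANP against 0.42 for vehicle.

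Aqp2, the water channel that vasopressin sends to the urine side, measured 5.89, 5.24 and 6.68 in ANP animals at day 28, against 6.09, 6.08 and 6.29 in vehicle animals. The treated animals spread more widely than the vehicle animals and lay on both sides of them, and the log2 ratio was -0.22 ± 0.31 with a 95% interval of -0.92 to 0.48 (limma, adjusted p = 0.697). Without the second treated array the ratio was 0.13, and the gene's second probe had a ratio of 0.04. At day 14 Aqp2 measured 5.66, 6.08 and 5.81 in ANP animals, against 6.11, 5.99 and 6.73 in vehicle animals, with overlap and a ratio of -0.43 ± 0.31 (limma, adjusted p = 0.621). The pools read 6.31 for ANP against 6.47 for vehicle at day 1, and 6.01 for ANP against 6.38 for vehicle at day 7.

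Aqp3, an exit channel on the blood side, measured 4.22, 3.98 and 4.72 in ANP animals at day 28, against 4.74, 4.71 and 4.61 in vehicle animals. The third treated animal reached the vehicle animals and the other two lay below them, as in Aqp2, and the log2 ratio was -0.38 ± 0.20 (limma, adjusted p = 0.245). At day 14 it measured 4.11, 4.37 and 4.28 in ANP animals, against 4.29, 4.41 and 4.91 in vehicle animals, with overlap (-0.28 ± 0.20; adjusted p = 0.592 in limma). The ANP pool was 0.44 lower than the vehicle pool at day 1 and 0.45 lower at day 7 on the log2 scale, without a test.

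Aqp4, the other exit channel, ran the opposite way at day 28. It measured 0.16, 0.09 and 1.61 in ANP animals, against -0.20, -0.22 and 0.10 in vehicle animals. The third treated animal stood alone, and the second lay within the vehicle range. The log2 ratio was 0.72 ± 0.37 (limma, adjusted p = 0.238), and 0.23 was the lowest ratio when 1 array at a time was left out. The gene had 5 probes in the test, and the other 4 had ratios of 0.49 to 0.96 at day 28, with 0.0519 as the lowest adjusted p in limma. At day 14 Aqp4 measured 0.56, 0.86 and 0.88 in ANP animals, against 0.09, 0.40 and 1.01 in vehicle animals, and the groups overlapped (0.26 ± 0.37; adjusted p = 0.825 in limma). In the pools it was 0.28 higher for ANP at day 1 and 0.78 lower for ANP at day 7.

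**Figure D3:**
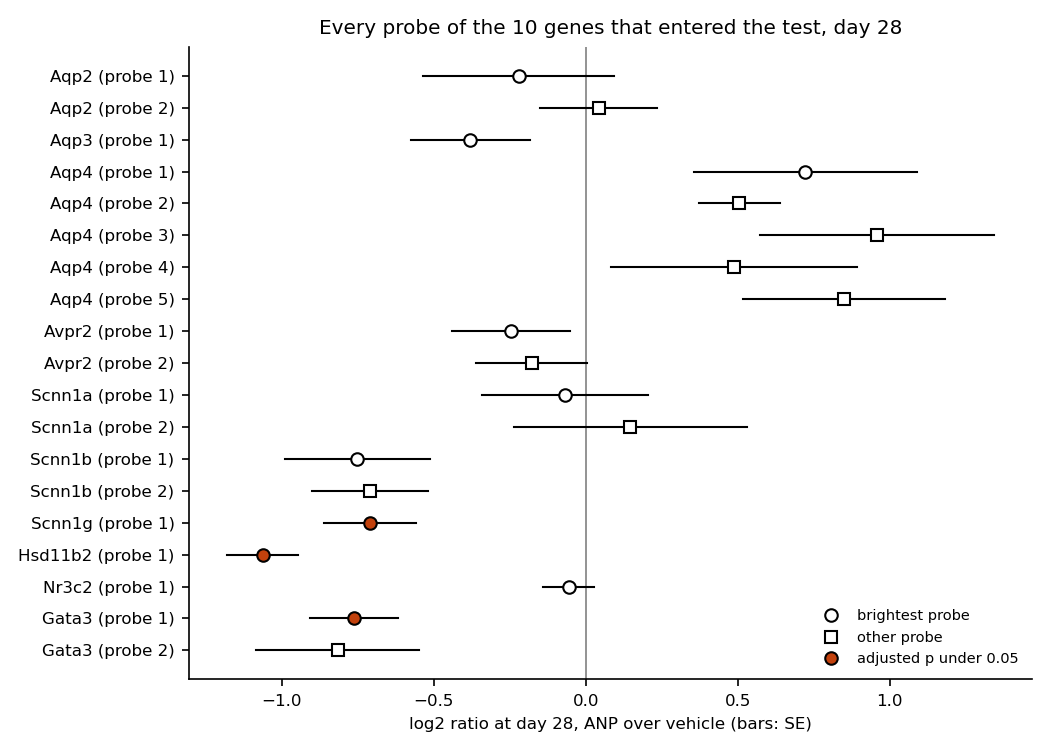
Log2 ratio of ANP over vehicle at day 28 for the 19 probes of the 10 genes that entered the test, with bars for the SE of the limma fit. Circles are the brightest probe of each gene, which stands for the gene in the text, squares are its other probes, and filled symbols have an adjusted p under 0.05. The 5 Aqp4 probes all lie above 0, both probes of Scnn1b and of Gata3 below 0, and the 2 probes of Aqp2 and of Scnn1a fall on either side of 0.

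The plot of all probes shows that genes with more than 1 probe gave ratios of one sign for Scnn1b, Gata3, Avpr2 and Aqp4. For Aqp2 and Scnn1a the signs differed, with every ratio smaller than its own SE. Hsd11b2 and Scnn1g, which passed the test at day 28, had 1 probe each, as had Aqp3, so their ratios rest on that probe alone.

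In the earliest samples no gene of the 10 was 2-fold apart between pools, where 9.78% of 12413 genes were at day 1 and 4.65% of 12122 genes at day 7. The ANP pool was the lower one for 8 of 10 genes at day 1, beside 54% of all genes, and for 9 of 10 at day 7, beside 43.7%. Other lists tilted too: at day 1 it was lower for 9 of 12 thick ascending limb markers but for 1 of 11 tubular injury markers. At day 7 it was lower for 10 of 10 endothelial markers and 8 of 12 thick ascending limb markers, but for 1 of 13 convoluted proximal tubule markers. The median log2 ratios of the 10 genes were -0.24 at day 1 and -0.33 at day 7. With 1 array per group these ratios carry no error. At day 14, 0 of 10 genes passed in limma in either direction, beside 0.363% of all genes higher and 0.118% lower, although 3 of the 10 had an unadjusted p under 0.05.

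Averaged over days 14 and 28, the effect of ANP was -0.69 ± 0.08 for Hsd11b2, -0.53 ± 0.11 for Scnn1g and -0.49 ± 0.10 for Gata3 (limma, adjusted p = 0.0016, 0.0153 and 0.0175). These were 3 of 10 genes lower and 0 higher, beside 4.08% and 6.14% of all genes tested. Scnn1b averaged -0.59 ± 0.17, with an adjusted p of 0.0533 in limma, and it passed in 8 of 23 alternatives, where the adjusted p ran from 0.0230 to 0.113. Between the ANP animals of day 28 and of day 14, 0 of 10 genes passed in either direction, beside 3.61% higher and 1.73% lower over all genes tested. Hsd11b2 was the only 1 of the 10 with an unadjusted p under 0.05 there, beside 26.9% of all genes tested.

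Besides Hsd11b2, no gene of the 10 passed the test between the vehicle animals of day 28 and of day 14. The log2 ratio of day 28 over day 14 was 0.76 ± 0.24 for Scnn1b (limma, adjusted p = 0.0673), 0.42 ± 0.14 for Gata3 (0.0918) and 0.25 ± 0.15 for Scnn1g (0.326). For these 3 and Hsd11b2, 4 of 10 genes in all, every vehicle array of day 28 lay above every vehicle array of day 14, beside 18.7% of all genes tested. Gata3 passed with normexp and quantile normalization together (0.0274) and with slide as a random block (0.0373), and Scnn1b with slide as a random block (0.0220) or without the first vehicle array of day 14 (0.0135), all in limma. Each vehicle group lay wholly on a single slide, so the negative correlation within slides narrows the error of that random block here too. For the remaining 6 genes the vehicle arrays of the 2 times overlapped.

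The lists of cortical markers, like Hsd11b2, Scnn1b, Scnn1g and Gata3, stood lower in ANP than in vehicle animals at day 28. They also stood higher in vehicle animals of day 28 than in those of day 14. Between the ANP groups the lists did not move with the 10 genes. There the log2 ratio of day 28 over day 14 had a median of -0.04 for the 10 genes. The medians were 2.13 for the distal convoluted and connecting tubule list, 1.75 for the convoluted proximal tubule and 0.62 for the glomerulus. Each list level below is the mean over its genes of the log2 value relative to the mean of the 12 arrays. The 6 tested markers of the distal convoluted and connecting tubule, which carries the same channel subunits and steroid enzyme, ranged from 0.29 to 0.58 in ANP animals at day 28, against 1.39 to 1.85 in vehicle animals. Their range at day 14 was -1.65 to -1.12 in ANP animals, against -1.72 to 0.40 in vehicle animals. Their median log2 ratio at day 28 was -1.30, and 1 of 6 was lower and 0 higher in limma, namely the sodium-calcium exchanger gene Slc8a1 at -1.86. Between vehicle animals of day 28 and of day 14 the median was 2.45, with 5 of 6 higher and 1 lower. The thiazide-sensitive transporter gene Slc12a3 was among those 5, at 2.55 ± 0.43 (limma, adjusted p = 0.00702). The lists are not fully separate. Egf stands both in this list and in that of the thick ascending limb. Calb1 stands both in this list and in that of principal cell identity.

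The other cortical lists ran alike. The convoluted proximal tubule markers ranged from 0.29 to 0.43 in ANP animals at day 28, against 0.85 to 1.19 in vehicle animals, and 1 of 13 was lower and 1 higher. The glomerular markers ranged from -0.09 to 0.23 in ANP animals, against 0.56 to 0.83 in vehicle animals, and 3 of 12 were lower (Clic5, Podxl and Ptpro, all podocyte genes). For vehicle animals of day 28 over those of day 14 the median log2 ratios were 1.45 and 0.79, with 8 of 13 and 7 of 12 markers higher and 0 lower. The part of these cortical markers in the differences of Hsd11b2, Scnn1b, Scnn1g and Gata3 was not tested.

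The intercalated cells, the acid-base cells that share the collecting duct with principal cells, had markers at -0.08 to 0.19 in ANP animals at day 28, against 0.32 to 0.72 in vehicle animals. Of 16 markers 14 had ratios below 0, with a median of -0.41, and 2 fell in limma, the proton pump subunit genes Atp6v1b1 (-0.62) and Atp6v1g3 (-0.62). Their range at day 14 was -0.56 to -0.39 in ANP animals, against -0.22 to -0.01 in vehicle animals. In vehicle animals 7 of 16 intercalated markers were higher at day 28 than at day 14 and 0 lower, with a median of 0.53. The level of the 10 principal cell genes ranged from -0.36 to 0.22 in ANP animals at day 28, against 0.20 to 0.27 in vehicle animals, so at this level the groups overlapped.

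**Figure D4:**
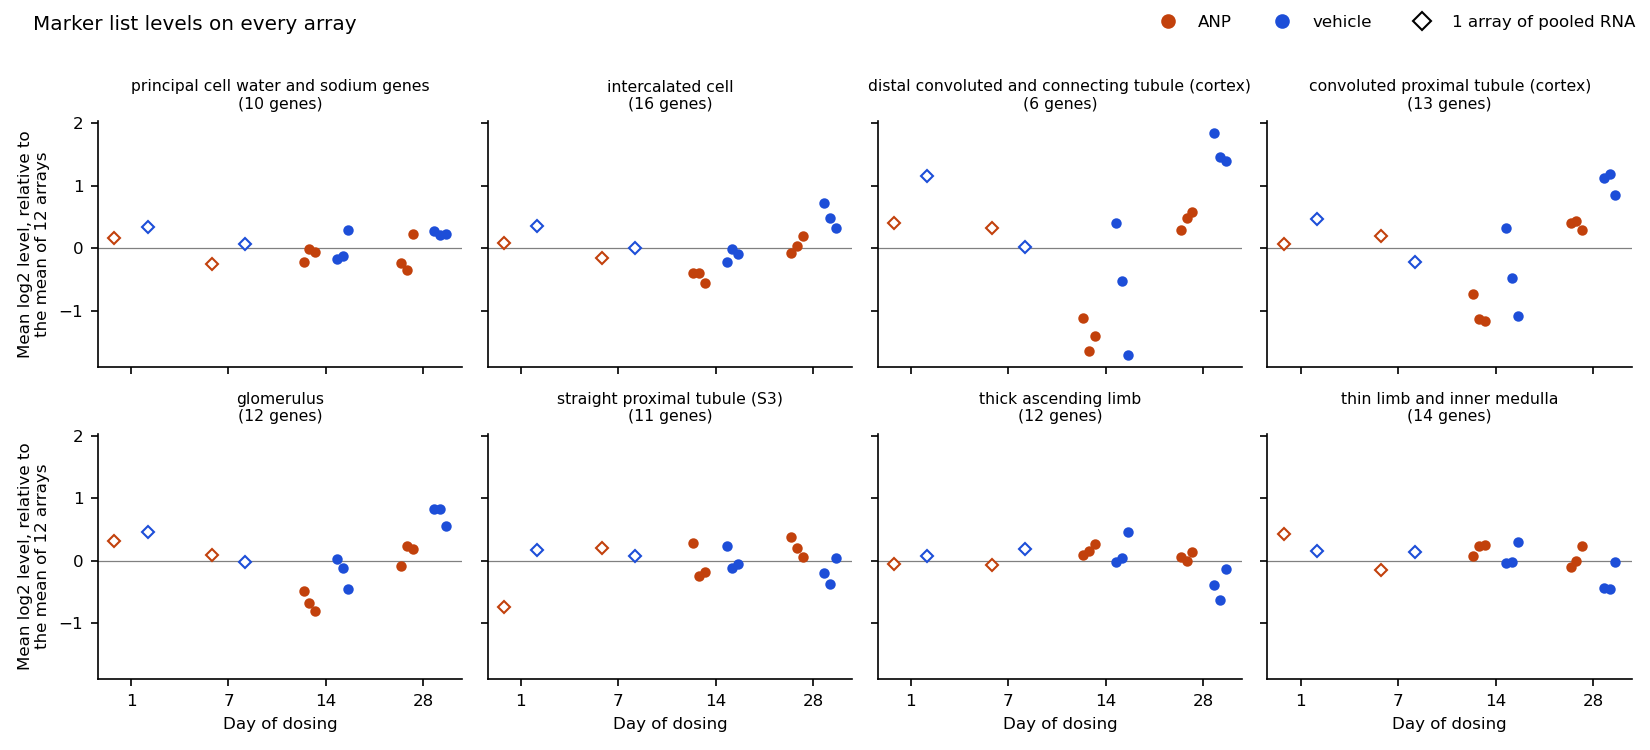
Mean log2 level of 8 gene lists on every array, relative to the mean of the 12 arrays of days 14 and 28, by day of dosing. ANP arrays stand left of vehicle arrays, and open diamonds are arrays of mixed RNA. The distal convoluted and connecting tubule list lies at 1.39 to 1.85 in vehicle animals of day 28, against 0.29 to 0.58 in ANP animals, and the principal cell list changes far less.

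Markers of medullary tubules lay on the other side. At day 28 the median log2 ratio of the thick ascending limb list was 0.27, with 1 of 12 higher and 1 lower, and the straight proximal tubule list 0.17, with 2 of 11 higher. The thin limb and inner medulla list stood at 0.17, with 1 of 14 higher. The medians of the endothelial (-0.06), macrophage and lymphocyte (-0.18), fibroblast and smooth muscle (-0.08) and tubular injury (0.01) lists were at or below 0.01, with 1 of 10, 0 of 12, 1 of 9 and 0 of 10 genes lower and 0 higher. The tubular injury list at day 14 stood at a median of 0.59, with 1 of 10 higher. In the plot of list levels the spread of the distal convoluted and connecting tubule list among the vehicle arrays of day 14 is as wide as any gap between groups of that day.

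The other genes of the vasopressin and aldosterone pathways were counted against the same 4.49% higher and 2.69% lower of all genes tested at day 28. Among 30 tested genes of vasopressin signalling and aquaporin-2 traffic, 0 were higher and 1 lower, a share near that of all genes, and the median log2 ratio was -0.08. The gene was Pde4d, a phosphodiesterase that degrades cyclic AMP, at -0.90 ± 0.18 (limma, adjusted p = 0.0223). Adcy6, the adenylyl cyclase that makes cyclic AMP on vasopressin's signal, had a ratio of -0.29 ± 0.15 (limma, adjusted p = 0.241). Averaged over both days Ptger4, a prostaglandin E2 receptor gene, was also lower (-0.63; adjusted p = 0.0342 in limma).

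Among 22 tested genes of the aldosterone and glucocorticoid response, 0 of 22 passed at day 28 in limma, and the median was -0.13. Sgk1, the kinase gene that aldosterone induces, averaged 1.82 ± 0.79 in ANP animals and 2.54 ± 0.70 in vehicle animals (SD, n = 3 each; limma, adjusted p = 0.359). The glucocorticoid receptor gene Nr3c1 had a ratio of -0.16 ± 0.07, Fkbp5 -0.41 ± 0.30 and Tsc22d3 0.07 ± 0.33. In vehicle animals of day 28 over those of day 14, the kinase genes Wnk1 (0.83 ± 0.18) and Wnk4 (0.62 ± 0.15) were higher (limma, adjusted p = 0.0175 and 0.0267). Both act on sodium transport in the distal nephron.

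Genes of sodium channel processing numbered 10 in the test, of which 0 passed at day 28, with a median of 0.11. Prss8, a protease that cleaves the channel, had a ratio of -0.19 ± 0.10 at day 28 and -0.39 ± 0.10 at day 14 (limma, adjusted p = 0.242 and 0.121). Averaged over both days Prss8 (-0.29) and Furin (-0.30), another protease of the channel, were lower (limma, adjusted p = 0.026 and 0.0115). The pump and potassium channel list had 0 of 12 passing at day 28 and a median of -0.00. The pump subunit gene Atp1b1 (0.01 ± 0.08) and the potassium channel gene Kcnj1 (0.33 ± 0.18) were among them. Kcnj16 (0.83) and Kcne1 (3.77) were higher and Atp1b3 (-0.46) was lower in vehicle animals of day 28 than in those of day 14.

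Of 28 tested genes of principal cell identity, 0 were higher and 1 was lower at day 28, with a median of 0.06. It was Cdh1, which encodes the epithelial adhesion protein E-cadherin and is not particular to principal cells. It averaged 2.27 ± 0.16 in ANP animals and 2.91 ± 0.08 in vehicle animals (SD, n = 3 each), a ratio of -0.64 ± 0.10 (limma, adjusted p = 0.0089). The transcription factor genes Tfcp2l1 (-0.47 ± 0.18; adjusted p = 0.130 in limma) and Elf5 (0.18 ± 0.24) did not pass. Other aquaporins had 0 of 9 passing and a median of -0.04, with Aqp1, the channel of proximal tubule and thin limb, at -0.06 ± 0.13. The urea transporter gene Slc14a2 stood at 0.24 ± 0.18. The potassium channel gene Kcnj10 was too dim to enter the test, and Nedd4l, Fxyd4 and Slc12a1 had no named probe and were not analysed here.

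The genes also differed in which others they followed across the 12 arrays of single animals, given here as Pearson's r over arrays that share 4 groups and 3 slides. Aqp2 ran closest to Aqp3, at 0.87, followed by Wnt5b (0.87), Snx15 (0.81), Adam1a (0.75) and Abcg3l4 (0.75) among 11848 genes. Avpr2 (0.72) and Scnn1g (0.70) also ranked high for it, whereas Hsd11b2 (0.32) and Scnn1a (-0.07) did not. Hsd11b2 ran closest to Sntb2, Abcg3, Sdc4 and Cdkl1 (0.95 each) and to Ccdc80 (0.94). Its values among the other members were 0.87 for Scnn1b (rank 104), 0.83 for Gata3 (rank 227) and 0.78 for Scnn1g (rank 472). Scnn1b ran closest to Ackr3 (0.95), Echdc1 (0.94), Tmem163 (0.93), Sod3 (0.92) and Tnfaip8 (0.92). Aqp3 had 0.66 with Hsd11b2, at rank 1007. For Aqp2 the ranks of Aqp3 and Scnn1g were 1 and 18, against 1007 and 472 for Hsd11b2. Ranks for different genes do not show which of them a member follows. By r itself Scnn1g was nearer to Hsd11b2 (0.78) than to Aqp2 (0.70), and Aqp3 nearer to Aqp2 (0.87) than to Hsd11b2 (0.66).

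**Figure D5:**
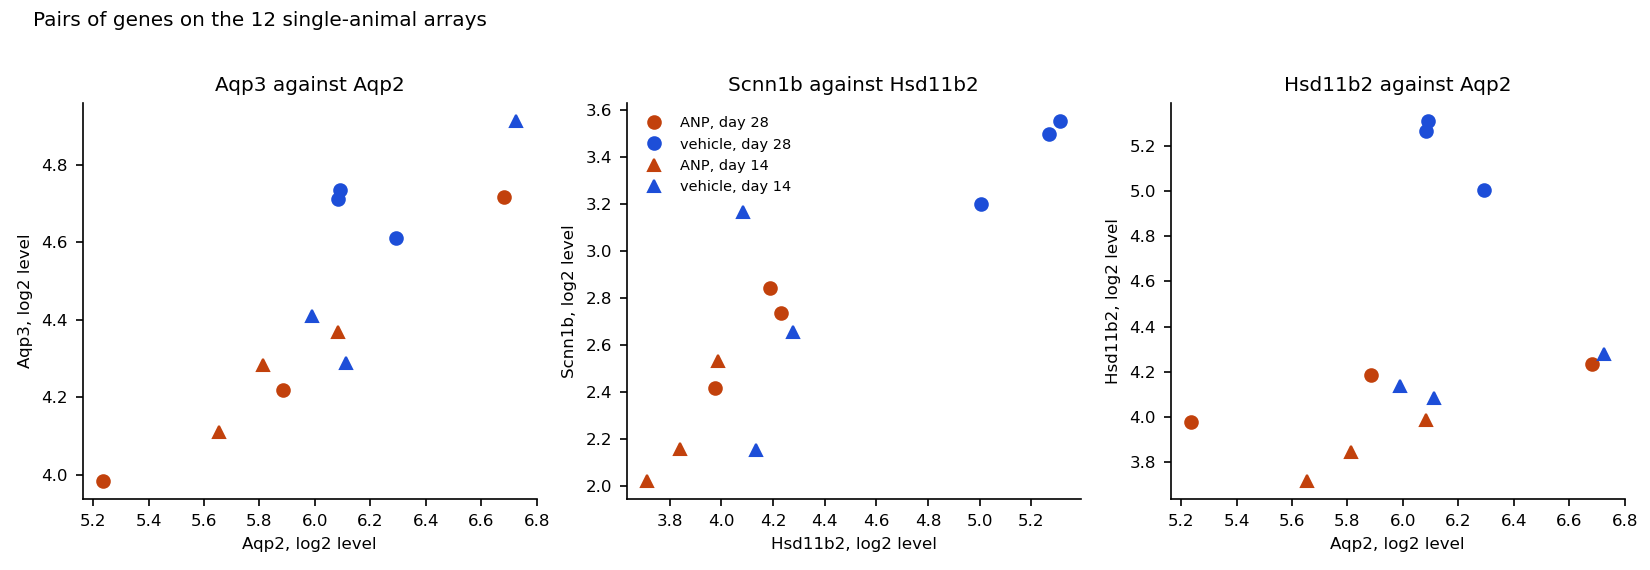
Levels of gene pairs on the 12 arrays of days 14 and 28 (log2 signal minus the array's 75th percentile on both axes), with ANP in orange and vehicle in blue, circles for day 28 and triangles for day 14. Aqp3 follows Aqp2 across both treatments (r = 0.87), Scnn1b follows Hsd11b2 mainly through the 3 vehicle arrays of day 28 at the upper right (r = 0.87), and Hsd11b2 does not follow Aqp2 (r = 0.32).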

How the data were processed

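Total RNA of the renal outer medulla was labelled with Cy3 and hybridised to 16 arrays, per the labels' protocols. The submitters' processing notes name Agilent Feature Extraction 10.7. The processed signal intensity in the deposited scanner files is background-subtracted on the linear scale, per the file headers. The authors' deposited value table holds a ratio, which on each array followed the processed signal over the 75th percentile (r at least 0.999995 on the log2 scale, column medians 0.099 to 0.108), so it is linear and was not centred by gene.

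Log2 of the deposited intensity minus the array's 75th percentile was computed over 61657 probes without controls. Between 0 and 9 outlier spots an array were dropped, and none was saturated. RefSeq names of the GRCr8 assembly, matched by accession, named 27460 probes of 15284 genes and left 34197 unnamed. A gene was represented by its brightest probe (mean of 12 arrays), provided that 1 or more of the 4 groups had it well above background on each of its arrays, which left 11849 genes. Tests used limma 3.58.1 in R 4.3.3 (lmFit with 1 mean per group, eBayes, Benjamini-Hochberg). The 75th percentile of the signal ran from 809 to 1324 and replicate arrays correlated across genes at 0.987 to 0.993. Same-numbered ANP and vehicle arrays did not deviate together in every pair (r from -0.068 to 0.144), so replicate numbers were taken as names.

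The mean signal column was not used, since the scanner files read here give the median signal, and normexp (offset 50) was run on that and its background, followed by quantile normalization. Other alternatives were quantile normalization alone, array median scaling, the authors' table, 2 further filters on dim probes, averaging a gene's probes, fitting the contrast's groups alone, a trended and robust spread, slide or replicate number as a block, and leaving out each array. After the data were seen, every named probe was tested apart and the ANP groups of both days were compared. The method was tested on simulated data. All 10 member genes, any list gene past the threshold, a fixed panel and the 5 most alike genes may be named, and 1 gene of the panel is not reported here. The members and the 17 lists (6 of pathways, 11 of markers) were chosen with earlier results of these data known.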

Additional observations from a re-analysis of the deposited data

How the results depend on the processing

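At day 28 leaving out 1 array at a time left 1 to 3 of the 10 genes lower, with 1, Hsd11b2, without the first vehicle or the second treated array, where fewer arrays were tested. The count was 2 with the day 28 groups fitted alone, 4 with normexp and quantile normalization together (normexp below) or slide as a random block, and 3 in the other 8 alternatives. Between vehicle groups normexp gave 2 higher genes, slide as a random block 3, and leaving out 1 array 1 to 2. The replicate block left 3 genes lower at day 28 and 0 at day 14, and it changed no other count of members called. Over all genes tested at day 28, 532 were higher and 319 lower, 773 and 244 under array median scaling, 216 and 215 with the day 28 groups alone, 674 and 571 with normexp, and 1098 and 761 with slide as a random block; the cause was not tested. Slide as a fixed block could not be fitted at day 28. Signs turned, always for ratios that had not passed and with the cause not tested, as follows. With the mean of a gene's probes Scnn1a was 0.038 and Nr3c2 0.039 at day 28, Nr3c2 0.10 as the mean of both days, and Aqp4 0.0096 and Nr3c2 -0.10 between ANP groups. Array median scaling gave Nr3c2 0.0044 at day 28 and 0.022 as the mean of both days. Slide as a fixed block gave Avpr2 -0.071 and Nr3c2 -0.021 at day 14, and normexp gave Nr3c2 -0.018 there. Between ANP groups quantile normalization gave Aqp2 -0.15 and Aqp3 -0.13, and normexp -0.14 and -0.13. Leaving out 1 array gave, at day 28, -0.59 to 0.13 for Aqp2 and -0.18 to 0.14 for Scnn1a. At day 14 it gave -0.10 to 0.22 for Avpr2 and -0.028 to 0.075 for Nr3c2. For the difference of the effects it gave -0.17 to 0.55 for Aqp2, -0.30 to 0.066 for Aqp3 and -0.036 to 0.72 for Aqp4, and for the mean effect -0.046 to 0.0094 for Nr3c2. Between vehicle groups it gave -0.26 to 0.11 for Aqp2 and -0.11 to 0.22 for Avpr2. Between ANP groups it gave -0.29 to 0.43 for Aqp2, -0.15 to 0.21 for Aqp3, -0.64 to 0.12 for Aqp4 and -0.028 to 0.083 for Nr3c2. The 3 arrays per group, slides that coincide with the groups compared at day 28 and between vehicle groups, and bulk tissue limit every result above.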
